A study of Zea mays with 168 samples.

Results

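Samples of maize (Zea mays) primary roots were ordered by the number of genomes that each genotype carried from the inbred line 250, and the change in transcript level per copy was measured. The genotype written in each sample's title fixed its place: 0 copies in the 9 genotypes without line 250, 1 copy in the 6 hybrids that have it as 1 parent, and 2 copies in the inbred line itself. The members were the samples of 76 of 84 slides, 2 on each, and covered all 16 genotypes. They comprised 93 samples with 0 copies (002x002, 005x005, 301x301, 002x005, 005x002, 002x301, 301x002, 005x301 and 301x005), 43 samples with 1 copy (002x250, 250x002, 005x250, 250x005, 301x250 and 250x301) and 16 samples with 2 copies (250x250). A name such as 250x002 gives a hybrid with line 250 named first, and 002x250 is its reciprocal. All groups were roots taken 3.5 days after germination, with about 20 roots pooled in each replicate, and the series text calls every sample its own biological replicate. Polyadenylated RNA was copied to cDNA, labelled with Cy3 or Cy5, and read on cDNA microarrays that carried 2 samples each.

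Where alleles of a parent act additively, the transcript level of a hybrid lies, on a linear scale, midway between the levels of its parents, and each further copy of a parental genome shifts the level by the same step. Departures from this midpoint are called non-additive and include dominance, where the hybrid equals 1 parent, and expression outside the range of both parents. In maize both patterns are studied for their possible part in heterosis, the greater vigour of hybrids, which can already be seen in the young primary root.

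The spots were named by expressed sequence tag (EST) identifiers, short cDNA reads deposited before the genome was assembled. Of 11431 tested identifiers, 8 were listed as a synonym of a gene in the reference table (assembly Zm-B73-REFERENCE-NAM-5.0), and none of the markers of root, leaf or kernel looked for could be matched, so that the labelled tissue was not checked against marker genes. The results therefore describe spots by identifier, without gene functions, and no sequence is shown.

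Line 250 can be compared in 2 steps. On 16 slides a 250x250 sample lay beside a 1-copy hybrid, whose other parent was line 002 on 7, line 005 on 4 and line 301 on 5. On another 15 slides a 1-copy hybrid lay beside a 0-copy sample, with partner line 002 on 5, 005 on 3 and 301 on 7, and the 0-copy sample was in all 15 cases the inbred partner line. No slide carried 2 and 0 copies together. A further 6 slides paired reciprocal 1-copy hybrids, and 39 slides carried no copy in either channel and informed only the dye effect and the spread. Every 1-copy sample was a hybrid and every 2-copy sample an inbred, so that a departure of the 1-copy group and heterozygosity cannot be told apart. On the slides with unequal copies, each further copy of line 250 also took the place of a copy of the partner line. A gain of line 250 and a loss of the partner line therefore cannot be told apart in the trend. Bulk RNA of whole roots cannot tell fewer cells of a type from less RNA per cell.

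The deposited log2 channel levels had medians of 8.90 to 11.26, and the 2 channels of a kept slide had medians at most 0.08 apart. Signal was weak: the median tested spot was 1.34 to 5.53 times as bright as the median spot without an identifier in the 2-copy samples (median 2.04), 1.01 to 6.61 times in the 1-copy samples (median 1.89) and 1.04 to 7.94 times in the 0-copy samples (median 1.58). On shared slides this ratio was higher in the channel with more copies on 10 of 16 slides for 2 over 1 and on 8 of 15 for 1 over 0. Slides 0, 1, 18, 19, 48, 288, 289 and 472 were left out. In both channels of slides 0 and 1 the scanner values lay closer to the other channel's deposited level than to their own. The Cy5 signal of slides 18 and 19 was 1.02 and 0.95 times that of spots without an identifier, the channel medians of slides 288 and 289 lay 1.48 apart, and slides 48 and 472 nearly repeated slides 28 and 26.

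Of 11838 tested spots, 10 were called for a trend with the number of copies of line 250 (0.0845%). A call asks for a Benjamini-Hochberg adjusted p under 0.05 over all spots in limma's moderated fit of within-slide differences. The fitted trend was positive at 9 spots (0.076%), named below as those that rose: AI621819, BG840886, BM074319, AI600379, AI600532, AW455727, AI622296, AI491282 and AI738325. It was negative at 1 spot, AW090892 (0.00845%), named below as the one that fell. The group medians did not rise at each step at AI600379, AI600532 and AI622296, and did not fall at each step at AW090892. The 9 gains ran from 0.37 to 0.61 log2 units per copy, and the fitted change over both copies ran from 1.68-fold to 2.33-fold. At an unadjusted p under 0.05 the count was 1084 spots (9.16%), 600 of them higher (5.07%) and 484 lower (4.09%). The median standard error of a trend was 0.08, which gives a 95% half-width of 0.16 log2 units per copy for a typical spot. Only 1 of the 10, AI621819, was called with the 8 left-out slides kept, and none of the 10 was called when slide was not used as a block. Leaving out 1 of the 37 slides with line 250 moved the count by over 1.5 times for 21 of them, from 2 (slides 16, 39, 57, 58, 59, 274 and 917) to 26 (slide 945), and AI621819 and BG840886 were called in all 37 fits. None of the 10 was called in a fit of the 31 slides with unequal copies alone (smallest adjusted p 0.16, limma). With 16 genotypes as separate levels the calls of AI621819 and BG840886 held and the other 8 were lost. With the scanner tables those of AI621819, BG840886, BM074319, AI491282 and AW090892 held and the other 5 were lost.

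AI621819 had the smallest p. Its channel level ran from 8.76 to 12.40 with a median of 10.33 in the 91 measured samples with 0 copies, from 9.12 to 12.89 with a median of 10.42 in 42 samples with 1 copy, and from 9.76 to 12.45 with a median of 11.49 in 15 samples with 2 copies. The 3 ranges overlap, and only the 2-copy median stands clearly apart. On slides that carried 2 copies beside 1, the difference was 0.66, 0.45, 0.10 and 0.29 with partner line 005, and 0.10, 0.67, 1.04, -0.13 and 1.42 with partner line 301. With partner line 002 it ran from -0.49 to 1.66 on 6 slides. The channel with 2 copies was higher on 12 of 15 slides, and on slides of 1 beside 0 the channel with 1 copy was also higher on 12 of 15, with a median of 0.38. The fitted trend was 0.47 ± 0.09 log2 units per copy (SE, adjusted p = 0.008, limma), or 1.39-fold per copy. On slide 292 both channels were listed at exactly 0 for AI621819 and AI600532, so that these fits lacked it.

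BM074319 was higher in the channel with more copies on 27 of 31 slides. Its level ran from 8.90 to 12.44 (median 9.78) at 0 copies, from 8.65 to 11.33 (median 9.85) at 1 copy and from 9.02 to 12.66 (median 9.93) at 2 copies, and these ranges overlap almost entirely. Differences of 2 over 1 were 1.30, 0.08, 0.39 and 0.13 with partner line 005 and 0.19, 1.81, 0.59, 0.17 and 0.31 with partner line 301, so that all 9 of these slides had the higher level in 250x250. With partner line 002 they ran from -0.50 to 1.67. For 1 over 0 the values were 0.18, 0.22 and 0.35 with partner line 005 and 0.32, 0.15, 0.00, 0.21 and 0.27 with partner line 002, while with partner line 301 they spread from -0.45 to 1.41. The trend was 0.38 ± 0.08 (adjusted p = 0.03, limma).

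AI600379 had levels of 8.63 to 12.58 (median 10.21) at 0 copies, 9.10 to 13.34 (median 10.77) at 1 copy and 9.06 to 13.22 (median 10.64) at 2 copies. The median over all samples of a group was thus not highest at 2 copies, although the channel with 2 copies was the higher one on 12 of 16 shared slides. Differences of 2 over 1 were 0.73, 0.29, -0.08 and -0.23 with partner line 005 and 0.37, 1.05, 0.89, 0.31 and 1.77 with partner line 301. For 1 over 0, only 9 of 15 slides were higher with 1 copy, and the 2 largest values, 1.92 and 1.85, both came from slides with partner line 301. Its trend of 0.41 ± 0.09 had an adjusted p of 0.041 (limma).

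AI600532 had 1 of the larger trends, 0.61 ± 0.14 (adjusted p = 0.041, limma). Levels ran from 8.88 to 12.98 (median 10.98) at 0 copies, from 9.08 to 14.01 (median 10.88) at 1 copy and from 9.82 to 13.37 (median 11.72) at 2 copies, again with overlapping ranges. With partner line 005 the difference of 2 over 1 was 1.10, 0.99, -0.24 and -0.09, and with partner line 301 it was 0.44, 1.23, 1.09, 0.04 and 1.95. For 1 over 0 it spread from -1.19 to 2.99, with 11 of 15 slides higher at 1 copy.

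AW090892 was the only spot called lower. Its level ran from 8.65 to 11.93 (median 9.98) at 0 copies, from 8.98 to 11.24 (median 10.13) at 1 copy and from 8.77 to 10.90 (median 9.85) at 2 copies. On slides with 2 beside 1 it was lower in 250x250 on 13 of 16, with values of -1.36, -0.37, -0.21 and 0.04 for partner line 005 and -0.46, -0.69, -0.56, -0.22 and 0.08 for partner line 301. On slides with 1 beside 0 it was lower in the hybrid on 11 of 15, with a median of -0.20. The trend was -0.29 ± 0.06 (adjusted p = 0.041, limma), or 0.821-fold per copy, and its values with partner lines 002, 005 and 301 were -0.30, -0.29 and -0.28.

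The other 5 called spots rose. BG840886 is printed on 2 spots and so lies outside the rule used to choose the spots described singly, and it is named because it was called: 1 of its spots had a trend of 0.37 ± 0.07 (adjusted p = 0.008, limma; higher on 27 of 31 slides), and the other had 0.02 ± 0.07 (adjusted p = 0.95, limma). AI622296 had a trend of 0.61 ± 0.14 and the widest spread of the called spots between slides, from -0.92 to 2.79 for 2 over 1 and from -0.75 to 3.77 for 1 over 0. Its median levels were 10.65 at 0 copies, 10.46 at 1 copy and 11.19 at 2 copies. AI491282, AI738325 and AW455727 had trends of 0.45 ± 0.10, 0.40 ± 0.09 and 0.39 ± 0.09, and were higher with more copies on 22, 24 and 22 of 31 slides. The highest levels of AW455727, 16.03 in 002x002 and 17.99 in 002x250, both came from slide 506. Without that slide its trend was 0.33 and it was not called, as in 15 of the 37 fits that left out 1 slide. The adjusted p was 0.041 (limma) for all 4 of AI622296, AI491282, AI738325 and AW455727.

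**Figure D1:**
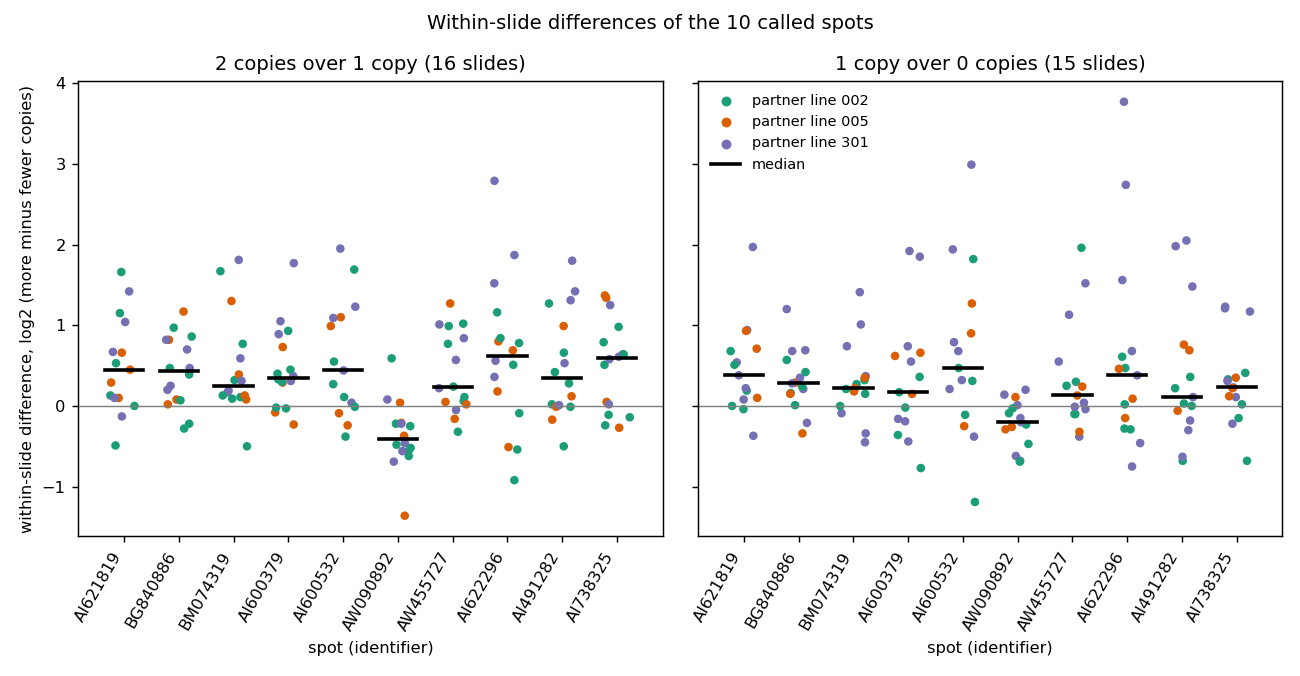
Within-slide difference (log2, the channel with more copies of line 250 minus the channel with fewer, not corrected for dye) of the 10 called spots, for 2 copies over 1 copy on the left and 1 copy over 0 copies on the right; each point is 1 slide, coloured by partner line, and bars are medians. All medians of the 9 higher spots lie above 0 in both panels and those of AW090892 lie below 0, while single slides spread from -1.36 to 3.77. The spots were picked on these same slides.

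**Figure D2:**
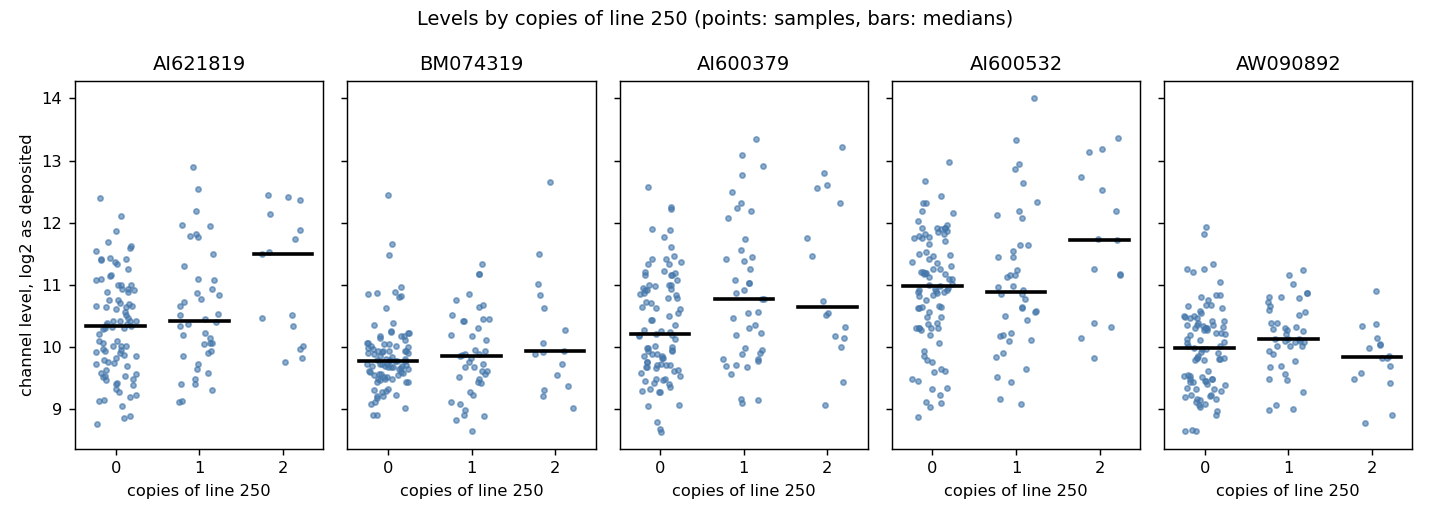
Channel level (log2, as deposited) by number of copies of line 250 for the 4 singly printed spots of smallest p among those that rose and for AW090892; points are samples and bars are medians. The ranges of the 3 groups overlap in every panel, and the 2-copy median of AI621819 is 11.49 against 10.33 at 0 copies.

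The dyes were nearly balanced: the channel with more copies was Cy5 on 8 of 16 slides for 2 over 1 and on 6 of 15 for 1 over 0. For AI621819 the mean difference was 0.38 ± 0.60 where Cy5 held more copies (SD, n = 14) and 0.57 ± 0.55 where Cy3 did (n = 16). For AW090892 these means were -0.28 ± 0.36 (n = 14) and -0.31 ± 0.38 (n = 17). Each of the 10 called spots had the same sign in both dye orientations. The orientations divide the slides on which these spots were picked, so that this is no separate check.

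Taken step by step, no spot was called. For 2 copies over 1 copy, 0 of 11838 spots passed (0%, smallest adjusted p 0.12, limma) and 1444 had an unadjusted p under 0.05 (12.2%), 699 of them higher (5.9%) and 745 lower (6.29%). For 1 copy over 0 copies, 0 passed (0%, smallest adjusted p 1, limma) and 257 had an unadjusted p under 0.05 (2.17%). The share for 1 over 0 lies below, and that for 2 over 1 above, the share that p-values under 0.05 have where nothing changes. The reason was not tested. The median standard errors of the steps were 0.11 and 0.12, larger than the 0.08 of the trend. The fit gives each spot 1 spread over all 76 slides, so that these p-values do not measure the spread of each step's own slides. Among the 10 called spots both steps had the sign of the trend. The trend is the mean of both steps and was used to pick these spots, so that this is no separate check. AI621819 had 0.51 ± 0.12 for 2 over 1 and 0.43 ± 0.13 for 1 over 0. BM074319 had 0.47 ± 0.11 and 0.29 ± 0.11, AI600532 had 0.59 ± 0.19 and 0.62 ± 0.20, and AW090892 had -0.36 ± 0.09 and -0.21 ± 0.09, in the same order.

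The departure of the 1-copy hybrids from the line through 0 and 2 copies asks whether both steps of line 250 are equal on the log2 scale, that is, equal ratios. The arithmetic midpoint of the parents' levels, which additivity refers to, lies above the log2 midpoint by an amount that grows with the difference between the parents, so that the departure is not a test of exact additivity. No spot was called for it (0 of 11838, 0%, smallest adjusted p 1, limma), and 400 spots had an unadjusted p under 0.05 (3.38%), 215 of them above the line (1.82%) and 185 below it (1.56%). A typical departure was known to within 0.16 log2 units on either side (95% half-width, not adjusted), so that smaller departures were not detectable with these slides. Larger ones could also go uncalled, because calls were adjusted over all spots: AI619346, at 0.35 ± 0.11, was not called. In the 10 called spots it ran from -0.10 ± 0.09 (AI738325) to 0.08 ± 0.06 (AW090892), and their unadjusted p-values from 0.23 to 0.91. For AI600532 it was 0.02 ± 0.14, a standard error larger than the 0.08 of a typical spot.

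The spots of smallest p for the departure are given as not called. AW042434 lay above the line at 1 copy by 0.29 ± 0.08 and AI619346 by 0.35 ± 0.11 (adjusted p = 1 for both, limma). On slides of 2 beside 1, AW042434 was higher in 250x250 on 6 of 16 with a median of -0.10 and a range of -1.71 to 0.22, and on slides of 1 beside 0 it was higher in the hybrid on 11 of 15 with a median of 0.27. AI619346 had a range of -3.96 to 0.47 for 2 over 1, where 5 of 15 slides were positive, and of -0.82 to 0.63 for 1 over 0. Its estimate fell to 0.22 without slide 30, so that 1 slide sets much of it. Below the line were AI734391 (-0.32 ± 0.09) and AW120085 (-0.33 ± 0.10), both higher in 250x250 than in the hybrid on 13 of 16 slides, with medians of 0.43 and 0.28, and higher in the hybrid than in the partner inbred on 8 and 6 of 15. BG841442 (0.20 ± 0.06) was higher in 250x250 than in the hybrid on 0 of 16 slides, and AW054215 (-0.36 ± 0.11) was higher in the hybrid than in the inbred partner on 2 of 15.

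**Figure D3:**
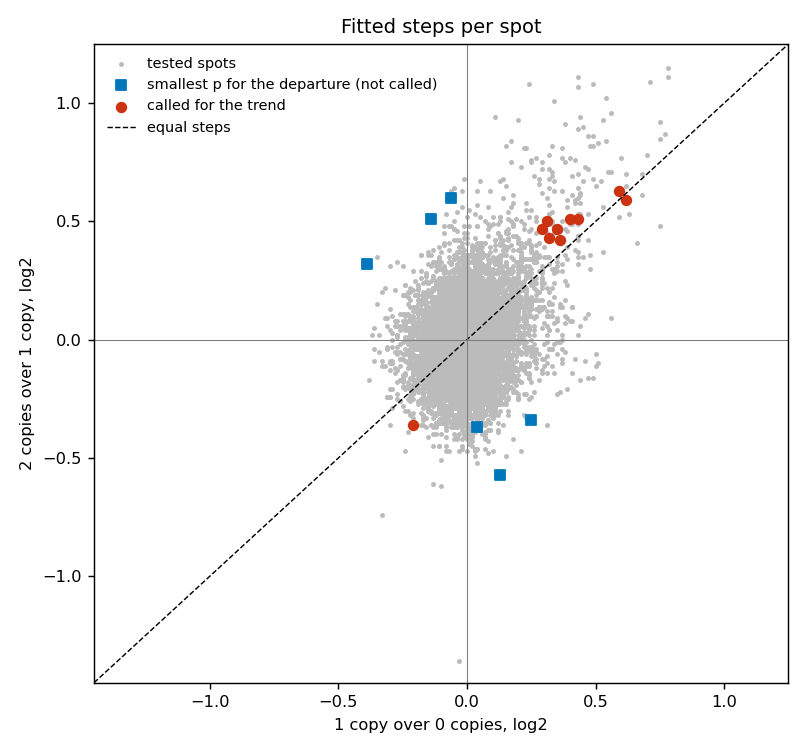
Fitted difference of 2 copies over 1 copy (vertical, log2) against that of 1 copy over 0 copies (horizontal, log2); each grey point is 1 of 11838 tested spots, and the dashed line marks equal steps. The called spots (red) lie near that line, and the 6 spots of smallest p for the departure (blue squares, not called) lie far from it. Both sets were picked by p-values of this same fit, so that the contrast between them is no separate result.

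Whether the effect of a copy depended on the other parent was tested with a trend for each partner line. No spot was called (0 of 11838, 0%, smallest adjusted p 0.078, limma's F test), and 876 had an unadjusted p under 0.05 (7.4%). Among the 9 spots that rose, the estimate was largest with partner line 301 at all 9. These spots were picked on the same slides and share them, so that they are not 9 separate observations. The share over all tested spots was not taken. At AI622296 the differences of 1 over 0 with line 301 ran from -0.75 to 3.77, and the largest, 2.74 and 3.77, came from slides 57 and 58. AI622296 had 0.18 ± 0.21 with line 002, 0.21 ± 0.27 with line 005 and 1.28 ± 0.21 with line 301 (unadjusted p = 5.0e-04, adjusted p = 0.25, limma). AI600379 had 0.11 ± 0.14, 0.34 ± 0.18 and 0.74 ± 0.14 in the same order of lines (adjusted p = 0.43, limma), and AI491282 had 0.15 ± 0.16, 0.36 ± 0.21 and 0.83 ± 0.16 (adjusted p = 0.52, limma). AI621819 was more even, with 0.39 ± 0.15, 0.42 ± 0.19 and 0.58 ± 0.15 (adjusted p = 0.92, limma).

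Without the slides that carry hybrids of 250 and 301, 0 spots were called for the trend, and without those of 250 and 005 also 0, while without those of 250 and 002 it was 1.14% of the tested spots, all higher, with 8 of the 10 among them. The samples of 250x301 had the highest median signal of the 16 genotypes, 3.59 times that of spots without an identifier, beside 2.23 in 301x250 and 2.85 in 301x301; the part of this in the result was not tested.

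**Figure D4:**
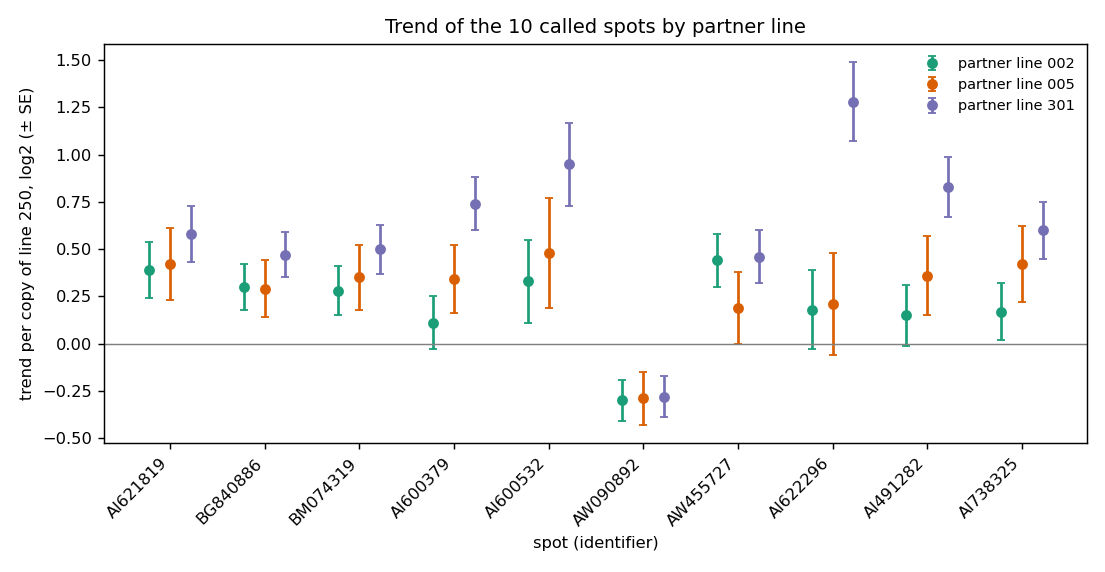
Trend per copy of line 250 (log2, with its SE) of the 10 called spots, fitted apart for partner lines 002, 005 and 301. At the 9 spots that rose the estimate with line 301 is the largest of the 3, up to 1.28 for AI622296, and AW090892 has nearly equal values. The spots were picked on these same slides and are not separate observations.

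The 3 spots of smallest p in the test between partner lines were not called. AI619069 had trends of -0.43 ± 0.18 with line 002, -0.08 ± 0.23 with line 005 and 0.85 ± 0.18 with line 301 (adjusted p = 0.078, limma). AI491412 had -0.46 ± 0.21, 0.07 ± 0.27 and 1.01 ± 0.20 (adjusted p = 0.078, limma), and AI861197 had -0.19 ± 0.13, 0.07 ± 0.17 and 0.65 ± 0.13 (adjusted p = 0.17, limma). Their levels overlapped between the groups: AI619069 ran from 8.53 to 13.07 (median 10.17) at 0 copies, from 8.96 to 13.07 (median 10.75) at 1 copy and from 9.10 to 12.41 (median 10.10) at 2 copies, and AI491412 from 8.48 to 12.54 (median 10.10), 8.90 to 13.25 (median 10.77) and 9.04 to 12.49 (median 10.61).

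Levels averaged over slides ordered the genotypes differently from the comparisons on shared slides. For each of the 9 spots that rose, the mean of 250x301 and 301x250 lay above that of 250x250, and also above the means of the hybrids with lines 002 and 005. The same held for AW090892, which fell, with 10.32 ± 0.61 in the hybrids with line 301 and 9.82 ± 0.53 in 250x250 (SD, n = 16 for both). AI621819 averaged 11.34 ± 0.89 in the hybrids with line 301 (SD, n = 16), 10.16 ± 0.47 in those with line 005 (n = 11) and 10.08 ± 0.78 in those with line 002 (n = 15), beside 11.13 ± 1.03 in 250x250 (n = 15). The inbred partner lines had means of 10.49 ± 0.86 (301x301, n = 18), 10.19 ± 0.82 (005x005, n = 14), and 002x002 lay lower still. AI600379 averaged 11.84 ± 1.14 in the hybrids with line 301 (n = 16), against 10.68 ± 0.96 in 301x301 (n = 19), and 11.10 ± 1.29 in 250x250 (n = 16). On the slides that they shared with hybrids of line 301, however, 250x250 samples were higher at AI600379 on all 5. Among the 16 genotypes, 250x250 ranked between 2 and 6 from the top at the 9 spots and 12 at AW090892. The lowest mean was that of 005x301 at AI621819, BM074319, AI600379, AW455727, AI622296, AI491282 and AI738325, and also at AW090892. These means hold the level of whole slides as well as that of the genotype, and no test was made of them.

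The direction of the cross made no called difference. Between 1-copy hybrids with line 250 named first and those with it named second, 0 of 11838 spots passed (0%, smallest adjusted p 0.35, limma), and 871 had an unadjusted p under 0.05 (7.36%), 494 of them higher (4.17%) and 377 lower (3.18%) with line 250 first. The 10 called spots had differences of -0.33 ± 0.15 (AI491282) to 0.08 ± 0.10 (AW090892).

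AW424637 had the smallest p of this comparison, at 0.54 ± 0.12 (not called). Its level ran from 8.62 to 12.34 (median 11.36) with line 250 first (n = 20) and up to 11.95 (median 10.77) with line 250 second (n = 22), and on the 6 slides that paired reciprocal hybrids the difference was 1.12, 0.70, 1.35, -0.37, 0.18 and -0.35. AI939759 (0.48 ± 0.12, not called) had 0.90, 1.11, -0.12, -0.42, -0.04 and -0.09 on these slides, higher on 2 of 6. In the other direction AI461555 (-0.43 ± 0.12, not called) had -0.80, -0.63, -0.20, 0.08, -0.34 and -1.40, and AI770630 (-0.46 ± 0.13, not called) had -1.74, -1.20, 0.20, 0.14, 0.38 and 0.10. BG873917 (0.60 ± 0.15, not called) was higher on all 6 slides but ranged from 0.01 to 3.38, and its estimate was 0.37 without slide 46. BM350859 (-0.42 ± 0.12, not called) was higher on 1 of 6.

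Over all tested spots, the differences of separate slides had little in common in the median. Nearly all of these spots were not called, so that an effect shared by few spots would hardly show in such correlations. Over all spots, the slides of 2 beside 1 had a median correlation of 0.05 over the 37 slide pairs that shared a partner line (range -0.44 to 0.45) and of 0.01 over the 83 that did not, after the mean dye effect of the slides with equal copies was taken off. For slides of 1 beside 0 it was -0.03 (34 pairs) and 0.01 (71 pairs). The mean difference of 2 over 1 and that of 1 over 0, which share no sample, had a Pearson correlation of 0.31 and a rank correlation of 0.18 over 11838 spots, and the same sign at 56.1% of them. Between partner lines the Pearson correlation of the mean differences was 0.13 for 002 and 005 (rank correlation 0.14), 0.28 for 005 and 301 (0.13), and -0.10 for 002 and 301 (-0.10). These are descriptions over spots, which share slides, dyes and print positions.

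The slides carry numbers in 4 ranges, and the labels do not say what the ranges mark. In a fit within slides 2 to 61, which hold 12 of the 31 informative slides and 7 of the 12 with partner line 301, all 10 called spots kept their sign and were called, among 254 calls in all. Within slides 916 to 999, with 10 informative slides, all 10 kept their sign but none was called, and the median size of their trend was 0.26 log2 units per copy against 0.60 in slides 2 to 61. Slides 273 to 309 and 471 to 561 held 4 and 5 informative slides, all with partner line 002. In them 10 and 8 of the 10 spots kept their sign, and none of the 10 was called. The spots that reversed were BM074319 (-0.14 ± 0.25) and AI738325 (-0.03 ± 0.28), both within slides 471 to 561. The ranges divide the slides on which the 10 spots were picked, so that kept signs are no separate check.

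**Figure D5:**
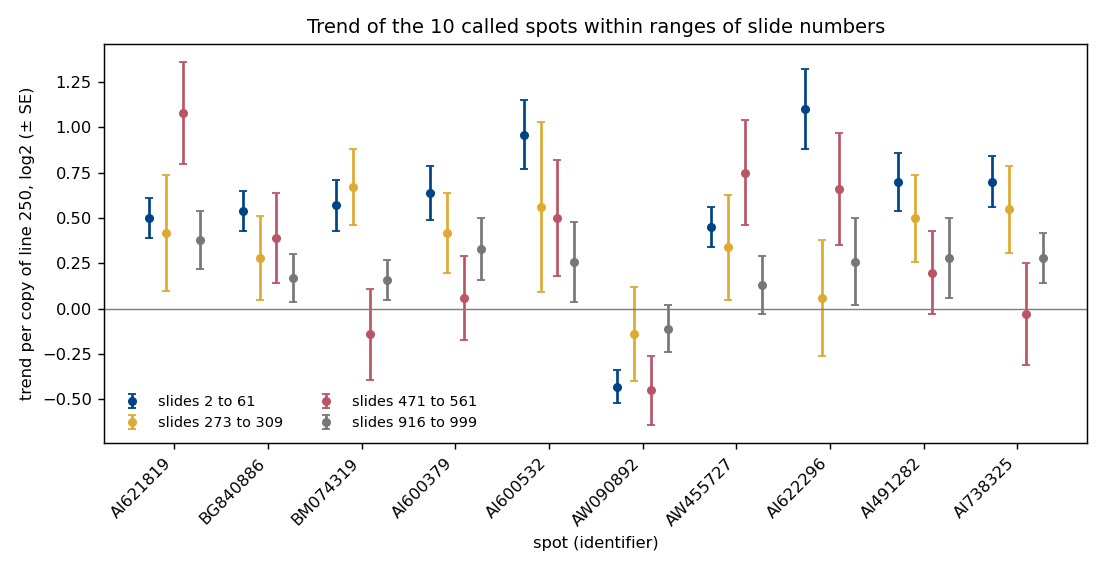
Trend per copy of line 250 (log2, with its SE) of the 10 called spots, fitted within each of the 4 ranges of slide numbers. The values within slides 2 to 61 and 916 to 999 all have the sign of the whole fit, with sizes of 0.60 and 0.26 in the median, and BM074319 and AI738325 are below 0 within slides 471 to 561.

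Neighbouring print positions moved together. On the 39 slides without line 250, the median correlation of within-slide differences between a called spot and the spots printed next to it was 0.78 for AI621819, 0.66 for AI738325, 0.55 for BM074319 and 0.51 for BG840886, and the lowest was 0.26 for AW090892. With all tested spots these medians lay between -0.04 and 0.02. With the spots of the same print block that were not adjacent, they were 0.61 for AI621819, 0.40 for AI738325, 0.28 for BM074319, 0.38 for BG840886 and 0.14 for AW090892. Part of the likeness was thus shared across the block. All 8 neighbours of AI621819, BG840886, BM074319, AI600379, AI600532 and AI491282 had a trend of the same sign as the called spot, and the median trend of those neighbours ran from 0.07 to 0.23. This did not hold for all called spots: the same sign was found at 7 of 8 neighbours of AI738325, 4 of 5 of AW090892, 4 of 8 of AW455727 (median trend 0.00) and 2 of 8 of AI622296 (median trend -0.03). AI621819 and AI600532 lay diagonally next to each other, as did AI600379 and AI491282. When the median of the print neighbours was taken off each within-slide difference, a setting chosen after seeing the data, 15 spots were called, of which AI621819, BG840886, AI622296 and AW455727 were among the 10.

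Identifiers printed on more than 1 tested spot gave another view of the same question. For the 402 such identifiers, the trends of the first 2 spots had a correlation of 0.20 and the same sign at 49.5%, and the rank correlation of their mean levels was 0.25. Identifiers are given as deposited and were taken to follow the order of the log2 values. What each spot carries was not checked, so that every identifier and gene named here rests on that order.

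The 8 identifiers with a gene in the reference table lay on 10 spots, and none of these was called for the trend with copies of line 250. Their trends ran from -0.15 to 0.06 with a median of -0.03, beside a median of -0.01 over all tested spots, and 0 of the 10 had an unadjusted p under 0.05. AI665898 is listed for LOC100191184 with the synonym reticulon, the name of a protein family that shapes the membranes of the endoplasmic reticulum. Its 2 spots had trends of -0.08 ± 0.07 and 0.06 ± 0.10. The first of them had levels of 8.32 to 13.47 (median 10.40) at 0 copies, 8.95 to 12.47 (median 10.48) at 1 copy and 9.42 to 12.03 (median 10.57) at 2 copies, and the groups overlap. AI691686 (LOC100272873) had 0.04 ± 0.07 and 0.06 ± 0.07 on its 2 spots. The single spots of AI987507 (LOC542198), AI901738 (LOC100383044) and AI920398 (LOC100275582) had -0.04 ± 0.08, -0.02 ± 0.07 and 0.05 ± 0.08. The most negative values were those of AW257883 (LOC100279628) at -0.15 ± 0.10, AI714808 (LOC100283464, listed as a transcribed pseudogene) at -0.12 ± 0.08 and AW400087 (LOC100500995, listed as a long noncoding RNA) at -0.09 ± 0.09. Their 95% half-widths, which are not adjusted, are close to the 0.16 of a typical spot, so that changes smaller than this were not detectable. A call over all spots asks for a larger change still.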

How the data were processed

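The log2 values used here were deposited by the authors, who normalized a single scan of each channel according to their notes. The sources used here do not name the method. Their deposited scanner tables hold intensity values of scans at rising gain and served as an alternative. The scanner values lie in a grid turned against the log2 values (the median rank correlation was 0.9974 after turning and 0.0132 as listed), and were turned back. The identifiers, which are listed beside the scanner values, were taken to follow the order of the log2 values. These correlations cannot show which of the orders the identifiers follow. Another 18 columns of the scanner tables matched no labelled sample and were not used.

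Exact zeros (7843 values) were set to missing. Of 12160 spots, 190 without an identifier and 132 of identifiers printed 12 times were left out. Within-slide differences (Cy5 minus Cy3, which makes the slide a block) were fitted in limma 3.58.1 (R 4.3.3) on dye, copies of line 250 and an indicator of 1 copy, with 73 residual degrees of freedom and a prior of 9.712. Partner lines and the order of the parents were added in separate fits. Spots were called at a Benjamini-Hochberg adjusted p under 0.05 over 11838 spots. Individual arrays give no counting depth, so that their number limits the precision. Singly printed spots were named by smallest p: up to 12 called for the trend in each direction, and, in comparisons with no call, 3 in each direction (3 for the F test). Every spot with a gene symbol was also named. The members, lists and tests were chosen with earlier results of these data known. The code was tested on simulated data. Other normalizations, blocks, weights, slides and models were tried as alternatives.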

Additional observations from a re-analysis of the deposited data

Results flagged for a closer look

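Of 50 groups of slides examined (a called spot, a step and a partner line), 4 had a slide far from the others by Dixon's test, which chance flags in about 1 of 20 groups. BM074319 had a difference of 1.81 on slide 59 (2 copies over 1 copy, partner line 301, n = 5), against a median of 0.31 and a next value of 0.59. AW090892 had 0.59 on slide 273 (2 over 1, partner line 002, n = 7), opposite in sign to the median of -0.48. AW455727 had 1.27 on slide 16 (2 over 1, partner line 005, n = 4), against a median of 0.03. It also had 1.96 on slide 506 (1 over 0, partner line 002, n = 5), against a median of 0.25.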

How the results depend on the processing

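The share of tested spots called for the trend was 0.0845% (10 spots). It moved to 0.144% with loess within slides, 0.0422% with the scanner tables, 0.515% with slide as a random block, 0.0507% with no slide block, 0.237% with array quality weights, 0.00845% with the 8 left-out slides kept, 0.0169% with 16 genotypes as separate levels, 0.194% with additive copies of all 4 lines and 0% on the 31 slides with unequal copies. It was 1.14%, 0% and 0% without the hybrids of 250 with 002, 005 and 301, and 2.15%, 0.684%, 0.186% and 0% within slides 2 to 61, 273 to 309, 471 to 561 and 916 to 999. The cause was not tested. The count stayed within 1.5 times with channels centred on their median (13), print block medians removed (14), another variance prior (9), spots of low level left out (10) and the dyes of the label field (11). The 10 spots were all among these calls, except with print block medians removed (8 of the 10) and the other variance prior (9 of the 10). Leaving out each of the 37 slides with line 250 in turn gave 2 calls (0.0169%; slides 16, 39, 57, 58, 59, 274 and 917) to 26 (0.22%; slide 945), and AI621819 and BG840886 were called in all 37.

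Calls of 2 over 1, none in the main result, became 0.253% with print block medians removed, 0.321% with a random block, 0.76% with array weights, 0.00845% without hybrids of 250 and 301, and 1.36%, 1.57% and 0.431% within the first 3 ranges of slides. Calls of 1 over 0 became 0.0169% with array weights and 0.228% within slides 273 to 309. The departure had 0.0253% and 0.296% within slides 273 to 309 and 471 to 561, the order of the parents 0.0422% within slides 273 to 309, and the test between partner lines 0.549% with a random block and 0.0253% with no slide block. Slides 273 to 309 held 1 slide of 1 beside 0, and slides 471 to 561 held 1 of 2 beside 1, so that within them the calls of that step, and of the departure, rest on a single slide for it and say nothing about its spread. Without single slides, 2 over 1 had 0% to 0.00845%, the partner test 0% to 0.11%, and the other 3 comparisons 0%. Of settings chosen after seeing the data, leaving out the 5 slides with over 300 zeros gave 0.186% for the trend and 0.0507% for 2 over 1, removing the median of print neighbours gave 0.127%, 0.169% and, between partner lines, 0.118%, and keeping exact zeros gave 0.0845%. BM074319 and AI738325 turned to -0.14 and -0.03 within slides 471 to 561.

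The test between partner lines was not run without a partner line, within slide ranges or with separate genotypes. Samples were paired only by the shared slide, which was the block, because the replicate numbers of the labels do not pair samples across genotypes. Weak signal over spots without an identifier, and 31 informative slides, limit the precision.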

Other observations

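Of the slides left out, slides 18, 19 and 48 carried unequal copies of line 250. Of the 10 called spots, 4 had the sign of the trend on slide 18, 0 on slide 19 and 8 on slide 48, which nearly repeats slide 28. On slide 19 the difference was -2.16 for AI622296 and 1.06 for AW090892.

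Of the 25 spots of smallest p for the trend, 24 were higher with more copies. Of these 25, 14 had another of them at an adjacent print position, and all 25 lay in 13 of the 32 print blocks.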
